A study of Rattus norvegicus with 320 samples.

Results

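The liver miRNAs miR-122 and miR-802 were followed through rat organs and ages. The members are all miRNAs of the deposited count table named rno-miR-122 or rno-miR-802, with any arm suffix. This rule found 4 of the 616 miRNAs: rno-miR-122-5p, rno-miR-122-3p, rno-miR-802-5p and rno-miR-802-3p. The study sequenced small RNA from 320 tissue samples of Fischer 344 rats, an inbred strain, at 2, 6, 21 and 104 weeks of age. It covered 11 organs (liver, kidney, adrenal gland, spleen, thymus, lung, heart, skeletal muscle, brain, testis and uterus), and no group carried a treatment or a mutation. The samples came from 32 rats, 4 per sex and age with 10 organs each (testis in males, uterus in females), which makes 80 groups of 4 in which organs share animals. Male brain at week 6, replicate 3, and female spleen at week 104, replicate 4, were left out, so 318 samples remained. Both clustered away from their organs in the study's own processing. All values come from bulk tissue, where fewer cells of a type and less RNA per cell cannot be told apart.

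A miRNA is cut from a hairpin precursor as a duplex, and the strand from its 5′ side (5p) or 3′ side (3p) is loaded into a silencing complex that represses messenger RNAs paired with its seed. miR-122 is the classical miRNA of hepatocytes, known for its part in cholesterol and fatty acid metabolism and as a marker of liver damage when it appears in blood. miR-802 is a less abundant liver miRNA, studied for its effect on insulin sensitivity and glucose metabolism.

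The mature sequences are shown because the counts below stand for exactly these strands, and because no seed is shared among them. Capitals mark the seed, bases 2 to 8 from the 5′ end.
rno-miR-122-5p: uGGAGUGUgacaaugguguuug
rno-miR-122-3p: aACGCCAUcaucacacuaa
rno-miR-802-5p: uCAGUAACaaagauucauccu
rno-miR-802-3p: aCGGAGAGucuuugucacucagu
The 4 members carry 4 different seeds, and 0 other miRNAs of the table carry any of them. Both arms of miR-122 matched mature entries of RefSeq for the rat assembly GRCr8, so 2 of 4 members were found there. Both arms of miR-802 were read from the deposited table and lie within the RefSeq hairpin Mir802. On the + strand of GRCr8, rno-miR-122-5p lies at chr18:61028831-61028852 and rno-miR-122-3p at chr18:61028867-61028885. On the + strand of the same assembly, rno-miR-802-5p lies at chr11:46112378-46112398 and rno-miR-802-3p at chr11:46112416-46112438. The Mir122 hairpin is overlapped by the miRNA gene Mir3591, not analysed here, and by the transcribed pseudogene LOC134482951. The Mir802 hairpin lies in the long noncoding RNA gene LOC134480977.

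Liver was sequenced less deeply than the other organs, with 315550 to 1692126 counts per library (median 1040989). Library medians in the other organs ran from 1796224 counts in spleen to 6436572 in uterus. Levels are given as CPM, the count divided by the library total and multiplied by 1000000. A count of 3, used as the floor of detection, equals 1.77 to 9.51 CPM in liver libraries and 0.284 to 4.09 CPM in the others, and it covers counting error only. By age, the median liver total was 1167017 at week 2, 675010 at week 6, 913652 at week 21 and 1083035 at week 104. Liver libraries were spread over 8 sequencing lanes, 4 per lane, but unevenly over ages. Of the 8 livers of week 2, 4 shared a lane with no other liver, and only 1 lane held livers of both week 2 and week 6.

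The liver label was checked against 10 other miRNAs known from hepatocytes. Their summed level was higher in liver (264217 to 469223 CPM, median 333848) than in any other organ by the median. The most abundant was rno-miR-192-5p, and none of the 10 was at 0 in all liver samples. Of the 10, 7 were highest in liver by the mean, although brain, spleen and skeletal muscle had higher means of rno-miR-101a-3p, rno-miR-33-5p and rno-miR-378a-3p. In all 11 organs rno-miR-192-5p, rno-miR-148a-3p, rno-miR-148a-5p, rno-miR-101a-3p, rno-miR-101b-3p and rno-miR-378a-3p had means above 100 CPM. Outside liver the list is therefore not particular to hepatocytes. Some libraries of other organs stood apart by miR-122-5p itself. Male lung at week 21, replicate 3, held 2885 CPM of miR-122-5p, against 2.73 to 5.43 CPM in its 3 replicates. Male kidney at week 2, replicate 1, held 653 CPM, against 8.62 to 12.1 CPM. Female adrenal gland at week 2, replicate 3, held 933 CPM, against 52.7 to 202 CPM. Male spleen at week 6, replicate 4, held 228 CPM, against 5.14 to 13.6 CPM. These libraries are checked against the hepatocyte list where they are described.

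In liver, miR-122-5p was by far the most abundant member. It reached 19418 CPM in the lowest of the 32 liver samples, 29512 at the median and 43995 in the highest (mean 29704 ± 5307 SD), or 2.97% of counts. It ranked 8 among the 616 miRNAs of liver. The 5 most abundant liver miRNAs were rno-miR-192-5p with 21.8% of counts, rno-miR-22-3p with 13.2%, rno-miR-148a-3p with 7.76%, rno-miR-10a-5p with 5.66% and rno-miR-26a-5p with 5.53%. The opposite strand, miR-122-3p, ran from 701 to 1898 CPM with a median of 1124 (mean 1196 ± 325 SD, rank 50). miR-802-5p ran from 332 to 2192 CPM with a median of 1292 (mean 1200 ± 525 SD, rank 49), close to miR-122-3p. miR-802-3p was the lowest, from 232 to 1135 CPM with a median of 588 (mean 596 ± 240 SD, rank 67). Every liver sample held more miR-122-5p than any other member, while the ranges of the other 3 overlapped.

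**Figure D1:**
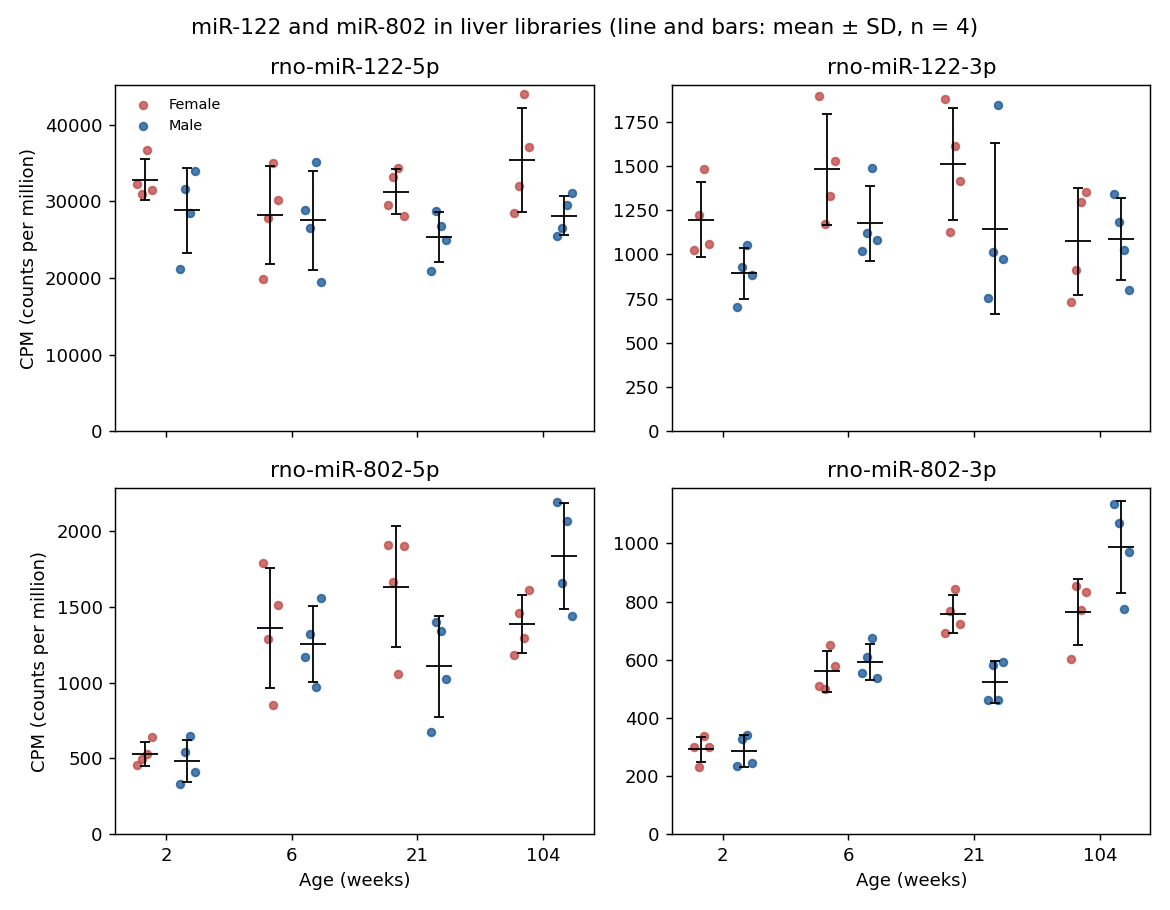
Each panel plots the CPM of 1 member (vertical axis) in the 32 liver samples by age in weeks (horizontal axis), with 1 point per sample, females and males apart, and lines and bars for the mean and SD of 4 samples. For both arms of miR-802 every point at week 6 lies above every point at week 2, while miR-122-5p stays between 19418 and 43995 CPM at all ages.

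Among the members, the largest step between neighbouring ages in liver was that of miR-802 from week 2 to week 6. miR-802-5p was 332 to 650 CPM (median 514, n = 8) at week 2 and 855 to 1787 CPM (median 1305, n = 8) at week 6. At week 21 it was 676 to 1909 CPM (median 1370, n = 8), and at week 104 it was 1181 to 2192 CPM (median 1537, n = 8). All 8 livers of week 6 and all 8 of week 104 lay above all 8 of week 2, while weeks 6, 21 and 104 overlapped. Of all 616 miRNAs, 2.44% separated week 6 above week 2 in this way, and 2.92% separated week 104 above week 2. In an edgeR fit over all 616 miRNAs, miR-802-5p rose from week 2 to week 6 by a log2 value of 1.49 (SE 0.16, adjusted p = 1.28e-09, Benjamini-Hochberg). To week 104 the rise was 1.94 (SE 0.16, adjusted p = 2.08e-12).

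The other arm, miR-802-3p, moved with it. It was 232 to 343 CPM (median 299, n = 8) at week 2 and 499.9 to 674 CPM (median 567, n = 8) at week 6. It was 462 to 842 CPM (median 642, n = 8) at week 21 and 604 to 1135 CPM (median 843, n = 8) at week 104. Again all 8 livers of week 6 and all 8 of week 104 lay above all 8 of week 2. From week 6 to week 21, 4 of 8 lay above all younger livers and 2 lay below them, and from week 21 to week 104 4 of 8 lay above. The log2 rise was 1.12 from week 2 to week 6 (SE 0.14, adjusted p = 2.9e-08) and 1.87 from week 2 to week 104 (SE 0.14, adjusted p = 1.41e-13). From week 6 to week 21 it was 0.48 (SE 0.14, adjusted p = 0.0236), a call lost when scaled by library size alone (0.13), with RLE factors (0.41), without the members in the scaling (0.45) or with lane as a covariate (0.50). It also fell short of the threshold without male week 6 replicate 2 (0.45), male week 6 replicate 4 (0.46), female week 21 replicate 2 (0.46), female week 21 replicate 3 (0.45) or male week 21 replicate 4 (0.46). Adjusted p for it ran from 0.0121 to 0.661 over all alternatives. From week 21 to week 104 the value was 0.27 (SE 0.14, adjusted p = 0.326), and scaled by library size alone it was 0.46 and called (adjusted p of 0.0251 to 1.00 over all alternatives).

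miR-122-5p kept a level that no age step changed by the test. It was 21230 to 36773 CPM (median 31564, n = 8) at week 2 and 19418 to 35157 CPM (median 28364, n = 8) at week 6. It was 20930 to 34317 CPM (median 28387, n = 8) at week 21 and 25513 to 43995 CPM (median 30298, n = 8) at week 104. The 4 age groups overlapped widely, with 2 of 8 livers of week 6 below all of week 2 and 2 of 8 livers of week 104 above all of week 2. Its log2 difference was -0.02 from week 2 to week 6, 0.36 from week 6 to week 21 (adjusted p = 0.129) and -0.01 from week 21 to week 104. Between week 2 and week 104 it was 0.33 (SE 0.15, adjusted p = 0.0623), with values of 0.04 to 0.39 and adjusted p of 0.0258 to 0.970 over all alternatives. That difference passed the threshold without female week 104 replicate 1 (0.39), male week 104 replicate 1 (0.37) or male week 104 replicate 2 (0.37). It also passed without the members in the scaling and with a filter on mean count. The log2 values include scaling factors between libraries (TMM) that CPM lacks. The CPM medians did not follow these values: they were 28364 and 28387 at weeks 6 and 21, and 31564 and 30298 at weeks 2 and 104. The rank of miR-122-5p in liver was 11 at week 2, 9 at week 6 and 8 at weeks 21 and 104.

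In the main fit miR-122-3p was called higher at week 6 and its partner strand was not. With lane as a covariate neither was called. miR-122-3p was 701 to 1486 CPM (median 1039, n = 8) at week 2 and 1021 to 1898 CPM (median 1251, n = 8) at week 6. It was 752 to 1879 CPM (median 1273, n = 8) at week 21 and 733 to 1354 CPM (median 1104, n = 8) at week 104. Only 3 of 8 livers of week 6 lay above all livers of week 2, and the age groups overlapped. It rose by a log2 value of 0.47 from week 2 to week 6 (SE 0.16, adjusted p = 0.0161). The call was lost without female week 2 replicate 4 (0.38), male week 2 replicate 1 (0.37), male week 2 replicate 4 (0.41), female week 6 replicate 1 (0.40) or male week 6 replicate 3 (0.41). With lane as a covariate the value was 0.05, and adjusted p ran from 0.00342 to 1 over all alternatives. From week 21 to week 104 the difference was -0.45 (adjusted p = 0.109), and it was called without female week 104 replicate 3 (-0.55). Between weeks 2 and 104 it was 0.34 (adjusted p = 0.0804), and it was called without female week 104 replicate 1 (0.42).

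Counted together, 3 of 4 members rose from week 2 to week 6, where 12.2% of all 616 miRNAs rose. From week 6 to week 21, 1 of 4 rose, against 4.87%. From week 21 to week 104 edgeR called 0 of 4 in either direction, against 3.73% of all miRNAs, with 1 of 4 at an unadjusted p under 0.05 and 0 of 4 called by DESeq2. Scaled by library size alone, miR-802-3p was called in that step (0.46). Over the whole span from week 2 to week 104, 2 of 4 rose, both arms of miR-802, against 15.7%. The 4 steps share samples. The median log2 difference of all 616 miRNAs was -0.22 from week 2 to week 6, -0.05 from week 6 to week 21, 0 from week 21 to week 104 and -0.16 from week 2 to week 104. Scaled by library size alone, the same medians were -0.33, -0.33, 0.16 and -0.36.

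Lane and age were partly bound together in liver, so the fit was repeated with lane as a covariate. miR-802-5p then rose by 1.19 from week 2 to week 6 and by 1.62 to week 104, and miR-802-3p by 1.06 and 1.71, all still called. In the lane that held livers of all 4 ages, miR-802-5p was 640 CPM in female week 2 replicate 4, 1287 CPM in female week 6 replicate 2, 1901 CPM in female week 21 replicate 4 and 2065 CPM in male week 104 replicate 3. In the same libraries miR-122-5p was 31452, 27804, 28054 and 29488 CPM. With 1 library per age, the lane gives no test of its own.

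Within a library, ratios of members do not depend on the library total. The ratio of miR-122-5p to miR-802-5p was 43.8 to 82.8 (median 63.2) at week 2 and 11.1 to 41.0 (median 20.8) at week 6. All 8 livers of week 6 lay below all 8 of week 2. The mean log2 ratio fell by 1.52 (exact two-sided permutation test, p = 0.000155, the smallest that 8 against 8 can give, adjusted p = 0.00124 over 8 ratio tests). At week 21 the median ratio was 20.2 and at week 104 it was 21.7, and the steps between these ages had adjusted p of 0.980 and 0.831 in exact permutation tests. The ratio of miR-122-5p to miR-122-3p was 24.7 to 38.4 (median 30.0) at week 2 and 10.5 to 28.3 (median 23.6) at week 6, with 6 of 8 livers of week 6 below all of week 2. Its mean log2 fell by 0.51 (exact permutation p = 0.00280, adjusted p = 0.0112). That call was lost without the replicates numbered 2 (-0.58) or 4 (-0.40), and adjusted p ran from 0.0112 to 0.147 over its alternatives. At week 104 the median ratio was 31.2, with 4 of 8 livers above all of week 21, at an exact permutation p of 0.0479 and an adjusted p of 0.128. The ratio of the arms of miR-802, 5p to 3p, had medians of 1.67, 2.36, 2.28 and 1.82 from week 2 to week 104, and its ranges overlapped at every step.

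Females and males did not differ by the test for any member. miR-122-5p was 31945 ± 5246 CPM in 16 female livers and 27462 ± 4467 CPM in 16 male livers, with overlapping ranges. miR-122-3p was 1316 ± 322 CPM in females and 1076 ± 289 CPM in males. The log2 difference, female minus male over all ages, was 0.17 for miR-122-5p (adjusted p = 0.652) and 0.25 for miR-122-3p (adjusted p = 0.407). For miR-802-5p it was 0.06 and for miR-802-3p -0.02. edgeR called 0 of 4 members over all ages, against 1.3% of all miRNAs, with 1 of 4 (miR-122-3p) at an unadjusted p under 0.05 and 0 of 4 called by DESeq2. Within single ages it also called 0 of 4, against 4.55% of all miRNAs at week 2, 0% at week 6, 2.11% at week 21 and 0.812% at week 104. At those ages edgeR had 0 of 4 at an unadjusted p under 0.05. DESeq2 called 0 of 4, with 1 of 4 at an unadjusted p under 0.05 at week 104.

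The sexes were also compared in how far miR-802 changed after week 21. In females miR-802-5p was 1909, 1665, 1058 and 1901 CPM at week 21 and 1181, 1464, 1296 and 1611 CPM at week 104. In males it was 676, 1399, 1341 and 1023 CPM at week 21 and 2192, 1658, 2065 and 1438 CPM at week 104. All 4 males of week 104 lay above all 4 males of week 21, as did 7.31% of all miRNAs, and the females overlapped. The difference between the sexes of this age change was -0.71 on the log2 scale for miR-802-5p (SE 0.32, unadjusted p = 0.0317 and adjusted p = 0.528 in edgeR). For miR-802-3p it was -0.62 (SE 0.28, adjusted p = 0.528 in edgeR). edgeR called 0 of 4 members for this difference, against 0.487% of all miRNAs, with 2 of 4 at an unadjusted p under 0.05 and 0 of 4 called by DESeq2. For the age change from week 2 to week 21 it also called 0 of 4, against 0.487%, with 0 of 4 at an unadjusted p under 0.05 and 0 of 4 by DESeq2.

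Other miRNAs of liver cells did not share 1 direction over the same ages. Beside the counts below, 12.2% of all 616 miRNAs rose and 23.1% fell from week 2 to week 6, and 4.87% rose and 4.55% fell from week 6 to week 21. From week 21 to week 104, 1.79% rose and 1.95% fell, and over the whole span 15.7% rose and 28.9% fell. Of the 10 in the hepatocyte list, 3 rose and 2 fell from week 2 to week 6 (median log2 0.30), and 5 rose from week 6 to week 21 (median 0.47). Scaled by library size alone 1 rose from week 6 to week 21, and with a filter on mean count 6 rose in the first step and 3 in the next. From week 21 to week 104 only rno-miR-192-5p fell (-0.47), and the list's median was -0.18. Over the whole span 6 rose and 1 fell (median 0.50). rno-miR-378a-3p, made from an intron of a gene for mitochondrial biogenesis, rose by 1.49 between weeks 2 and 104 (SE 0.17, adjusted p = 4.56e-09). rno-miR-33-5p, known as a brake on cholesterol export, rose by 1.36 (SE 0.25, adjusted p = 1.89e-05), and rno-miR-101a-3p by 1.14 (SE 0.15, adjusted p = 9.50e-08). rno-miR-192-5p rose by 0.57, rno-miR-194-5p by 0.51 and rno-miR-192-3p by 0.50, while rno-miR-148a-5p fell by 0.48. For rno-miR-148a-3p the value was -0.36, for rno-miR-194-3p 0.30 and for rno-miR-101b-3p -0.19, none of them called.

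Blood cell miRNAs moved with age in liver too. All 4 miRNAs of the red cell list rose from week 2 to week 104 (median log2 0.88), and 4 of 5 of the white cell list rose (median 1.51), where 15.7% of all miRNAs rose. By week 6, 2 of 4 and 3 of 5 had risen, against 12.2% of all miRNAs. Between weeks 6 and 21 the medians were -0.40 and 0.16, and 1 of 4 and 1 of 5 rose from week 21 to week 104, against 1.79%. Scaled by library size alone, 2 of the 4 red cell miRNAs were called higher at week 104 than at week 2, and 3 of 4 and 3 of 5 of the lists rose after week 21. In that scaling edgeR called 0 of 4 red cell miRNAs higher from week 2 to week 6, with 2 of 4 at an unadjusted p under 0.05, and DESeq2 was not run on the lists. The summed red cell list had medians of 6835, 7964, 5198 and 8892 CPM from week 2 to week 104, led by rno-miR-486. The summed white cell list had medians of 2225, 3431, 3304 and 4251 CPM, led by rno-miR-142-5p. No miRNA of either list was at 0 in all livers. Their part in the changes of miR-802 was not tested.

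Lists of other tissues moved in other ways. Of all 616 miRNAs 23.1%, 4.55% and 1.95% fell in the 3 steps and 28.9% over the whole span, so that counts of 1 in a list of 3 or 4 lie near the background of the first step and of the whole span. Of the 4 pancreas miRNAs in the table, 1 fell from week 2 to week 6, 1 rose to week 21, and 3 fell from week 21 to week 104 and from week 2 to week 104. The summed pancreas list, led by rno-miR-375-3p, had medians of 5467, 1244, 1894 and 1554 CPM. Of the 4 striated muscle miRNAs, 2 fell from week 21 to week 104 and 3 fell from week 2 to week 104. Of the 3 fibroblast and stellate cell miRNAs, 2 fell from week 2 to week 6, 1 fell to week 21 and 2 fell from week 2 to week 104. Of the 4 kidney miRNAs, 1 rose from week 2 to week 6, 2 rose and 1 fell to week 21, and 2 rose and 1 fell from week 2 to week 104. Of the 3 nervous tissue miRNAs, 1 fell from week 2 to week 104. In every list at least 1 liver sample held each miRNA, and the part of these lists in the changes of miR-802 was not tested.

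Outside liver all 4 members were trace miRNAs. Because they were chosen as liver miRNAs, liver and the other organs are compared as a description with no test. Liver held 98.6% of the summed organ means of miR-122-5p, 98.7% of miR-122-3p, 97.3% of miR-802-5p and 96.4% of miR-802-3p. None of the 286 samples from other organs reached the lowest liver sample for any member. The lowest liver sample exceeded the highest sample outside liver 6.73-fold for miR-122-5p, 9.52-fold for miR-122-3p, 4.67-fold for miR-802-5p and 4.48-fold for miR-802-3p. Each of these 4 highest values came from the same library, male lung at week 21, replicate 3.

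miR-122-5p was nevertheless counted at least once in every library. It had more than 3 counts in 281 of 286 samples outside liver, a count of 0 in none, and a median of 6.75 CPM. miR-122-3p had more than 3 counts in 55 samples and was at 0 in 104, with a median of 0.339 CPM. miR-802-5p had more than 3 counts in 136 samples and was at 0 in 49, with a median of 1.07 CPM. miR-802-3p had more than 3 counts in 103 samples and was at 0 in 64, with a median of 0.717 CPM. By lane, the median of miR-122-5p outside liver ran from 4.90 to 9.47 CPM, every lane also held 4 livers, and no lane had a sample at 0. Whether reads moved between libraries of a lane was not tested.

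**Figure D2:**
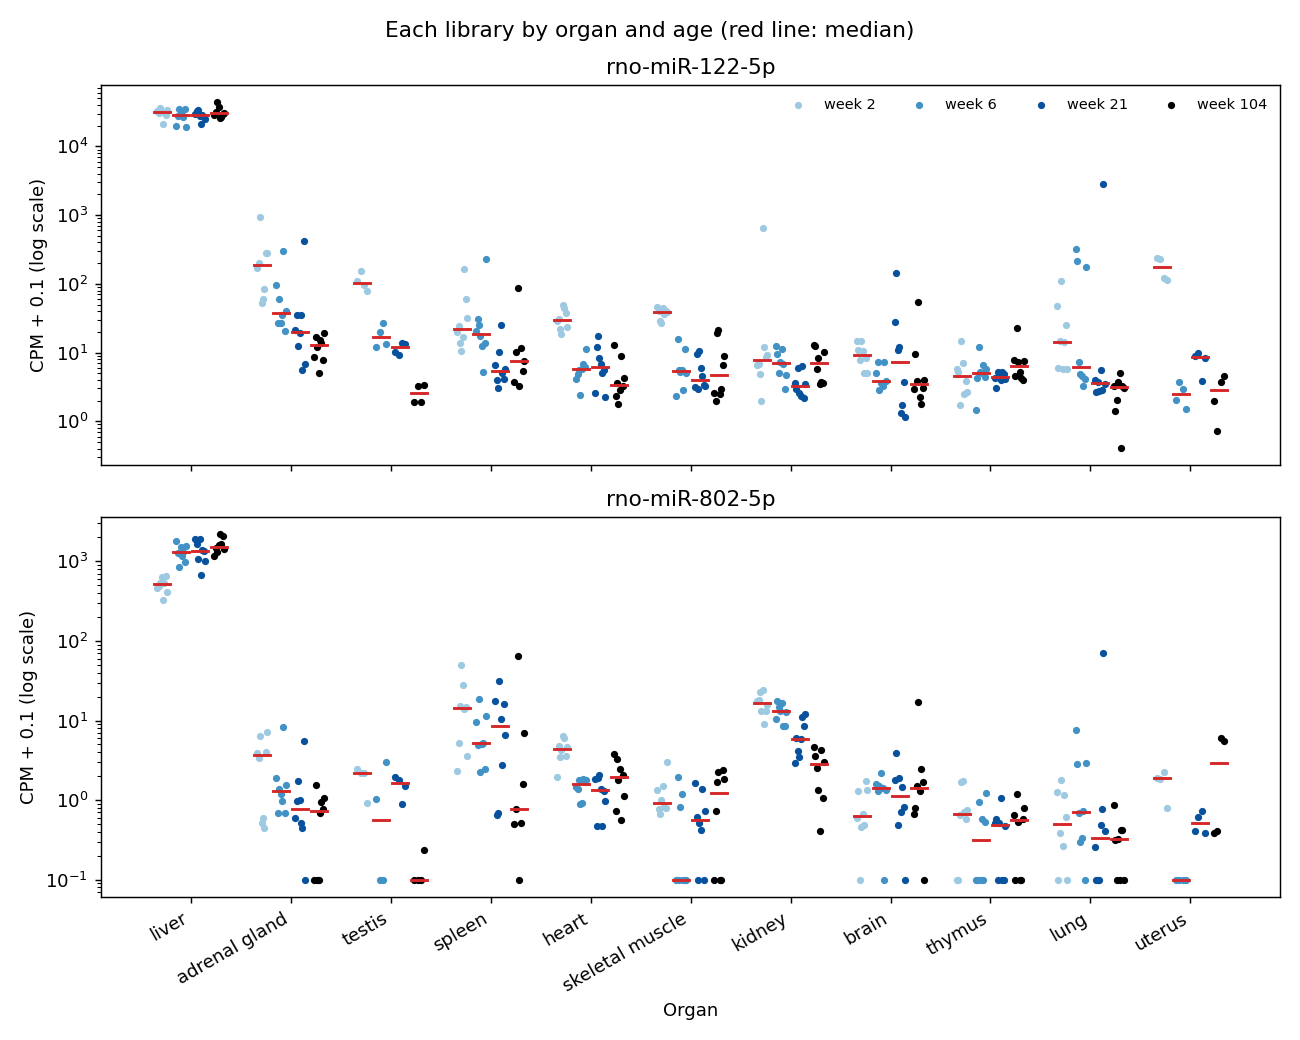
CPM plus 0.1 (vertical, log axis) of miR-122-5p (upper panel) and miR-802-5p (lower panel) in every kept sample of the 11 organs (horizontal axis), coloured by age, with red lines at the median of each organ and age. Liver lies above every other organ in both panels, with medians of 29512 CPM for miR-122-5p and 1292 CPM for miR-802-5p.

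The order of organs differed between miR-122 and miR-802. After liver, miR-122-5p had its highest median in adrenal gland (31.0 CPM), then testis (13.4), spleen (12.4), heart (6.41), skeletal muscle (6.14), kidney (6.09), brain (4.93), thymus (4.82), lung (4.56) and uterus (4.07). For miR-802-5p kidney came first (8.68 CPM), then spleen (5.14), heart (1.73), brain (1.21), testis (0.881), adrenal gland (0.872), skeletal muscle (0.650), thymus (0.426), uterus (0.415) and lung (0.297). For both, the lower quartile of liver lay above the upper quartile of the next organ, and every later pair of neighbours overlapped in its quartiles. miR-802-3p also began with kidney (6.48 CPM), spleen (2.53), heart (1.10) and brain (1.05), followed by adrenal gland (0.582), uterus (0.440), thymus (0.363), testis (0.290), lung (0.168) and skeletal muscle (0.162). miR-122-3p began with adrenal gland (1.26 CPM), spleen (0.661), testis (0.584), skeletal muscle (0.445), kidney (0.345), heart (0.281), brain (0.241), lung (0.222) and uterus (0.151) and ended with thymus at a median of 0. For these too only liver was separated from its neighbour by quartiles.

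Organs outside liver were compared in 36 pairs each (9 other organs at 4 ages), in a fit that took organs of 1 rat as separate samples. edgeR found 0 of 4 members higher in 1 organ than in every other organ at all ages, a pattern shown by 29.4% of all miRNAs. At an unadjusted p under 0.05 and by DESeq2 the count was also 0 of 4. miR-802-3p was higher in kidney in 33 of its 36 pairs, a count that 2.60% of all miRNAs reached there. miR-802-5p was higher in kidney in 30 of 36, a count reached by 4.22%, and in spleen in 30 of 36, a count reached by 12.7%. miR-122-5p was higher in adrenal gland in 28 of 36, a count reached by 23.1% of all miRNAs and so close to the background. With a block that takes equal sex, age and replicate number as 1 rat, the counts were 34 and 31 in kidney, 28 in spleen and 27 in adrenal gland. The paper does not say whether equal numbers mark the same rat, although its RNA sample numbers follow nearly the same order in each organ. The smallest log2 difference between liver and another organ was 3.83 for miR-802-3p and 4.53 for miR-802-5p, both against kidney at week 2. For miR-122-5p it was 6.59 against adrenal gland at week 2, and for miR-122-3p 6.54 against uterus at week 2.

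In kidney, both arms of miR-802 fell with age while they rose in liver. Of all 616 miRNAs, 26.0% fell in kidney from week 2 to week 104. Kidney miR-802-5p was 8.92 to 24.0 CPM (median 16.4, n = 8) at week 2 and 8.39 to 17.3 CPM (median 13.0, n = 8) at week 6. It was 2.86 to 12.1 CPM (median 5.81, n = 8) at week 21 and 0.311 to 4.55 CPM (median 2.70, n = 8) at week 104. Every kidney of week 104 lay below every kidney of week 2, a separation found for 11.5% of all miRNAs. It fell by 2.53 on the log2 scale from week 2 to week 104 (SE 0.24, adjusted p = 2.39e-11) and by 1.35 from week 21 to week 104 (SE 0.26, adjusted p = 3.75e-04). From week 6 to week 21 it fell by 0.73 (SE 0.21, adjusted p = 0.0267), a call lost without the replicates numbered 1 (-0.63), 3 (-0.72) or 4 (-0.68), with adjusted p of 0.00757 to 0.135 over its alternatives. The value was -0.45 between weeks 2 and 6 (SE 0.20, adjusted p = 0.0674 in edgeR), a step that DESeq2 called.

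Kidney miR-802-3p also fell over the whole span and after week 21, while its earlier step called by edgeR was from week 2 to week 6. The arms were not tested against each other. It was 11.3 to 24.0 CPM (median 14.2, n = 8) at week 2 and 3.98 to 10.2 CPM (median 8.60, n = 8) at week 6. It was 1.02 to 7.46 CPM (median 5.06, n = 8) at week 21 and 0.448 to 3.75 CPM (median 1.76, n = 8) at week 104. All 8 kidneys of week 6 and all 8 of week 104 lay below all 8 of week 2, the opposite order to liver, and week 6 lay below week 2 in this way for 8.12% of all miRNAs. It fell by 0.95 from week 2 to week 6 (SE 0.19, adjusted p = 1.07e-04) and by 2.89 from week 2 to week 104 (SE 0.24, adjusted p = 1.30e-12). From week 21 to week 104 it fell by 1.29 (SE 0.27, adjusted p = 9.14e-04). Between weeks 6 and 21 the value was -0.64 (SE 0.22, adjusted p = 0.0670), and it was called when scaled by library size alone (-0.96), with DESeq2 (-0.63) or with a filter on mean count (-0.66). The difference between liver and kidney in these age changes was not tested. The most miR-802-5p and miR-802-3p of any kidney, 24.0 CPM each, stood in male week 2 replicate 1, and without that library the called falls from week 2 to week 104 were -2.46 and -2.82, both still called. Over the span from week 2 to week 104 the red cell list rose in kidney in 4 of 4 (median log2 1.22), the white cell list in 4 of 5 (median 1.85) and the hepatocyte list in 6 of 10 with 2 lower, against 17.7% of all miRNAs higher. The summed red cell list went from a median of 1804 to 3259 CPM, the white cell list from 537 to 1824 CPM and the hepatocyte list, led by rno-miR-192-5p, from 53832 to 70910 CPM. Their part in the falls of miR-802 in kidney was not tested.

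**Figure D3:**
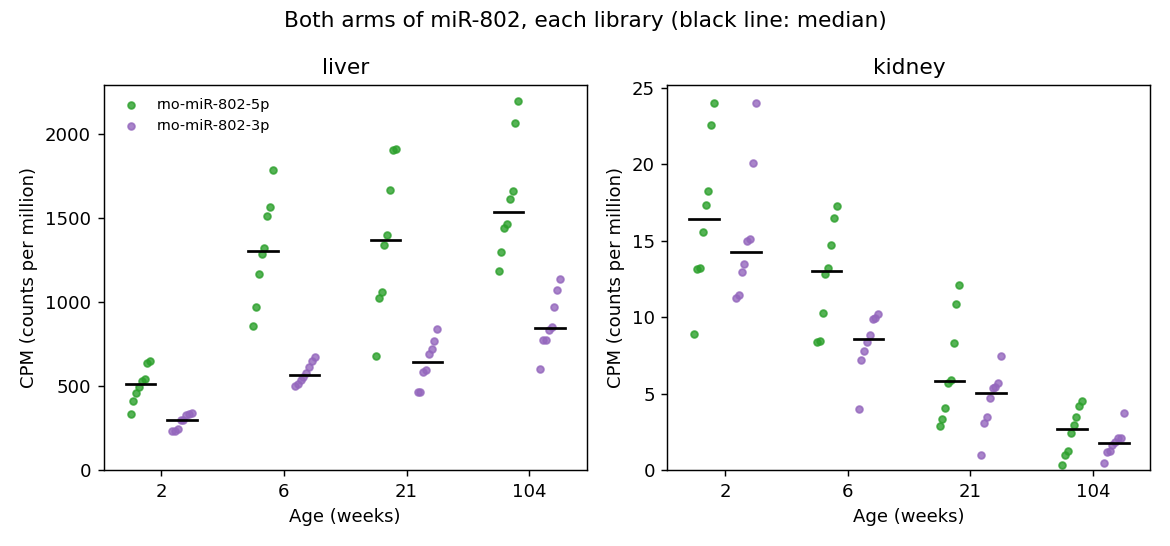
CPM of miR-802-5p and miR-802-3p (vertical axis) by age in weeks (horizontal axis), liver in 1 panel and kidney in the other with its own scale, with 1 point per sample and black bars at medians. The median of miR-802-5p goes from 514 to 1537 CPM in liver and from 16.4 to 2.70 CPM in kidney between weeks 2 and 104.

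By the median over all ages spleen held the next most miR-802 after kidney, with high values in a few libraries. By the mean it held more miR-802-5p than kidney (11.3 against 9.62 CPM) but less miR-802-3p (6.56 against 7.51 CPM). The RNA of the week 2 spleens was less intact than that of later spleens in the study's sample table, and the part of this in the age steps was not tested. miR-802-5p was 2.21 to 50.3 CPM (median 14.3, n = 8) at week 2, 2.14 to 18.6 CPM (median 5.09, n = 8) at week 6, 0.554 to 31.3 CPM (median 8.39, n = 8) at week 21 and 0 to 64.4 CPM (median 0.675, n = 7) at week 104. edgeR called 0 of its 4 age steps, as did DESeq2, with 0 at an unadjusted p under 0.05 by either tool. The log2 difference was -1.18 between weeks 2 and 104, and without the replicates numbered 3 it was -3.58 and called (adjusted p of 0.00834 to 0.688 over its alternatives). The highest spleens were female week 104 replicate 3 (64.4 CPM), female week 2 replicate 4 (50.3 CPM), female week 21 replicate 4 (31.3 CPM) and male week 2 replicate 1 (28.0 CPM). Their ratios of miR-122-5p to miR-802-5p were 1.37, 0.211, 0.322 and 0.604, below every liver of the same sex and age. The same 4 spleens had the 4 highest sums of the pancreas list, with 12700.2, 7723, 11306 and 6681 CPM. Of that list rno-miR-375-3p was the most abundant in each of the 4, and 1 of the 5 listed miRNAs was not in the table. The sums of the hepatocyte list in these 4 spleens were 113020, 81006, 120612 and 48941 CPM. Female spleen at week 104, replicate 1, with 0.401 CPM of miR-802-5p, had a sum of 101243 CPM. Of that list 7, 5, 5 and 5 of 10 in the 4 spleens were above their replicates, against 46.8%, 23.1%, 16.9% and 46.6% of all miRNAs. The part of pancreas or liver RNA in these values was not tested.

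Single libraries with high miR-122-5p were described 1 by 1. In male lung at week 21, replicate 3, 9089 reads of miR-122-5p stood for 11.2% of the median of livers of the same sex and age. The same lung held 73.6 CPM of miR-122-3p, 71.1 CPM of miR-802-5p and 51.7 CPM of miR-802-3p, where its replicates held at most 0.308, 0.683 and 0.617 CPM. Its ratio of miR-122-5p to miR-802-5p, 40.6, lay above the 20.0 to 30.9 of the matching livers. Of the 10 hepatocyte miRNAs, 8 were above all 3 replicates, as were 26.3% of all 616 miRNAs, with rno-miR-192-5p at 26475 CPM against 1882 to 2072 CPM. The summed list reached 54402 CPM, against 19888 to 22508 CPM.

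The hepatocyte list was raised in several of the other high libraries, but not in the same way. In female adrenal gland at week 2, replicate 3, 5 of 10 were above the replicates (8.28% of all miRNAs), and the summed list was 27724 CPM within the replicates' 25742 to 38170 CPM. In male kidney at week 2, replicate 1, 7 of 10 were above the replicates, near the 62.0% of all miRNAs, and the summed list was 57088 CPM against 40321 to 52730 CPM. There rno-miR-192-5p, 34941 CPM, lay within the replicates' 27568 to 36792 CPM. In male adrenal gland at week 21, replicate 3, miR-122-5p was 421 CPM against 5.49 to 35.4 CPM, with 7 of 10 above the replicates (25.6% of all miRNAs) and a summed list of 63945 CPM against 25328 to 28425 CPM. In female lung at week 6, replicate 1, it was 324 CPM against 4.71 to 218 CPM, with 2 of 10 above (31.8% of all miRNAs). In male adrenal gland at week 6, replicate 2, it was 304 CPM against 20.5 to 40.4 CPM, with 9 of 10 above the replicates (24.7% of all miRNAs) and a summed list of 53966 CPM against 35311 to 39034 CPM. In male spleen at week 6, replicate 4, 5 of 10 were above the replicates (17.9% of all miRNAs), and the summed list was 40451 CPM against 28516 to 30764 CPM. In female brain at week 21, replicate 2, 1 of 10 was above the replicates (38.3% of all miRNAs). The part of liver RNA in these libraries was not tested. Among the 8 other organs with the same sex, age and replicate number, miR-122-5p was the highest of its group in 3 for the lung of week 21, 4 for the kidney and 0 for the adrenal gland of week 2. Each group held 4 samples, so 1 in 4 would be the highest if the order were random.

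Each remaining organ had its own maximum of miR-122-5p. It was 236 CPM in uterus (week 2, replicate 1), 156 CPM in testis (week 2, replicate 2) and 143 CPM in brain (female week 21, replicate 2). It was 48.5 CPM in heart (male week 2, replicate 1), 45.8 CPM in skeletal muscle (female week 2, replicate 1) and 22.8 CPM in thymus (female week 104, replicate 3). The uterus, testis, heart and muscle values lay near their replicates, which reached 229, 110.5, 44.9 and 39.7 CPM, while the brain and thymus replicates reached 27.8 and 7.80 CPM. For miR-122-3p the samples next to the lung were male kidney at week 2, replicate 1 (32.6 CPM), female adrenal gland at week 2, replicate 3 (28.0 CPM), and male adrenal gland at week 6, replicate 2 (14.5 CPM), and at week 21, replicate 3 (13.9 CPM). For miR-802-3p they were male spleen at week 2, replicate 1 (38.5 CPM), female spleen at week 2, replicate 4 (34.6 CPM), the male kidney at week 2, replicate 1 (24.0 CPM), and female spleen at week 104, replicate 3 (21.2 CPM). The highest miR-802-5p of brain was 17.2 CPM in female week 104 replicate 4, the brain library with the fewest miRNA counts (1164462). The paper reports that the share of miRNA reads in this library was far below the brain average. The highest value of adrenal gland was 8.09 CPM in male week 6 replicate 2. That of heart was 6.35 CPM in male week 2 replicate 1, and that of uterus 5.95 CPM in week 104 replicate 3. In skeletal muscle, testis and thymus no sample exceeded 2.89 CPM of miR-802-5p.

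**Figure D4:**
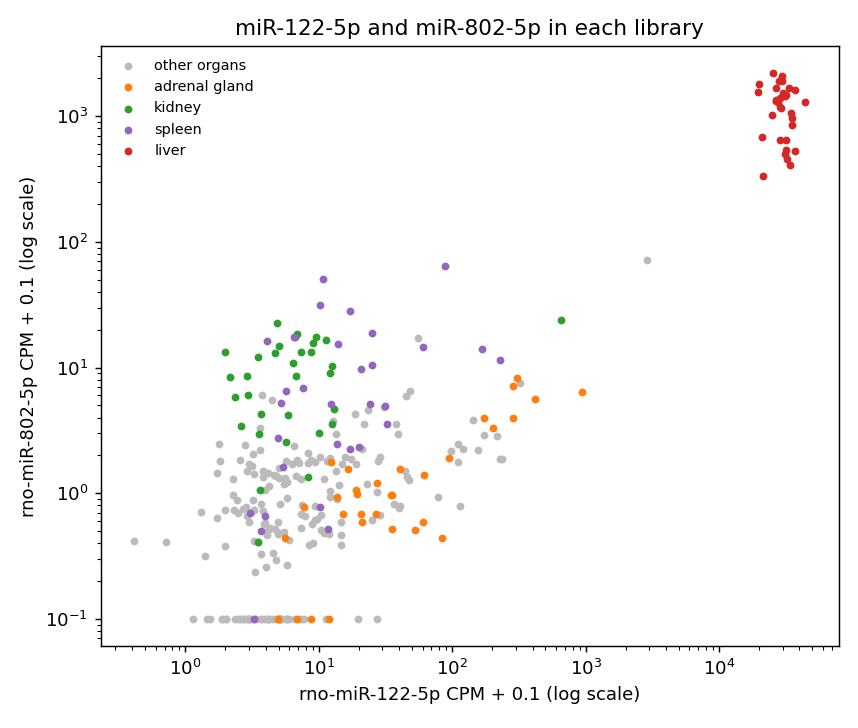
CPM plus 0.1 of miR-802-5p (vertical, log axis) against miR-122-5p (horizontal, log axis), with 1 point per kept sample and colours for liver, kidney, spleen, adrenal gland and the other organs. Liver forms a cloud above 19418 CPM of miR-122-5p and 332 CPM of miR-802-5p, and the single lung library at 2885 and 71.1 CPM lies nearest to it.

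The traces of miR-122-5p changed with age in other organs. Outside liver its median was 24.5 CPM in 72 samples of week 2, 6.54 CPM in 71 of week 6, 5.07 CPM in 72 of week 21 and 4.15 CPM in 71 of week 104. In heart it was 18.7 to 48.5 CPM (median 29.6, n = 8) at week 2 and 2.35 to 11.4 CPM (median 5.61, n = 8) at week 6. In skeletal muscle it was 27.1 to 45.8 CPM (median 39.4, n = 8) at week 2 and 2.25 to 15.6 CPM (median 5.23, n = 8) at week 6. Every sample of week 2 lay above every sample of week 6 in these organs, as for 15.9% of all miRNAs in heart and 17.4% in skeletal muscle. In testis it was 78.7 to 156 CPM (median 104, n = 4) at week 2 and 12.1 to 27.2 CPM (median 16.6, n = 4) at week 6. In uterus it was 114 to 236 CPM (median 175, n = 4) at week 2 and 1.42 to 3.60 CPM (median 2.39, n = 4) at week 6. Again there was no overlap, as for 28.4% of all miRNAs in testis and 24.2% in uterus. The paper reports that piRNA, another small RNA class, dominated testis libraries of adolescent and adult rats. The part of this in the testis values was not tested.

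From week 2 to week 6 edgeR called miR-122-5p lower in 5 of 10 organs and higher in 0 of 10, with 0 higher at an unadjusted p under 0.05 and 0 higher by DESeq2. DESeq2 also called 5 lower, with adrenal gland in place of kidney, where it gave no p for miR-122-5p at any step. Of all 616 miRNAs, the share that fell was 17.2% in adrenal gland, 19.3% in brain, 19.3% in heart, 23.9% in kidney, 20.5% in lung, 25.8% in skeletal muscle, 20.9% in spleen, 26.8% in testis, 9.90% in thymus and 19.6% in uterus. It fell by 1.93 in heart (SE 0.31, adjusted p = 4.33e-06), by 2.21 in skeletal muscle (SE 0.38, adjusted p = 7.76e-06) and by 2.64 in testis (SE 0.35, adjusted p = 1.42e-05). In uterus it fell by 5.63 (SE 0.52, adjusted p = 1.49e-07). In those 4 organs the call was kept without the highest library of each organ, a check chosen after seeing the data. In kidney the fall of 1.92 (SE 0.56, adjusted p = 0.00555) rested on male week 2 replicate 1: without it the value was -0.09, with adjusted p of 4.49e-07 to 0.887 over its alternatives. In adrenal gland, where the median was 187 CPM at week 2 and 37.6 CPM at week 6, the value was -1.70 (SE 0.67, adjusted p = 0.0507), and it was called without the replicates numbered 2 (-2.57). It was -0.52 without the replicates numbered 3 and -0.84 without female week 2 replicate 3, and adjusted p ran from 0.00880 to 0.542 over its alternatives. Brain (-0.68), lung (1.95), spleen (0.64) and thymus (0.08) were not called, and spleen was -0.76 without male week 6 replicate 4. In lung the value of 1.95 passed the threshold without male week 21 replicate 3, a library outside this step. With lane as a covariate the lung value was -0.52.

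From week 2 to week 104 it was called lower in 7 of 10 organs by edgeR and in 6 by DESeq2, which gave no p in kidney, and higher in 0 of 10 by either tool, with 0 higher at an unadjusted p under 0.05. The share of all 616 miRNAs that fell was 23.7% in adrenal gland, 26.0% in brain, 26.1% in heart, 26.0% in kidney, 26.0% in lung, 31.7% in skeletal muscle, 24.2% in spleen, 36.7% in testis, 33.0% in thymus and 27.3% in uterus. In uterus it fell by 5.16 (SE 0.50, adjusted p = 2.77e-08), to a median of 2.77 CPM. It fell by 4.12 in adrenal gland (SE 0.76, adjusted p = 3.32e-05), to a median of 12.6 CPM, and without female week 2 replicate 3 it fell by 3.26 and was still called. It fell by 3.89 in testis (SE 0.36, adjusted p = 7.45e-08), to 2.49 CPM, by 2.14 in heart (adjusted p = 3.64e-07), to 3.31 CPM, and by 1.37 in skeletal muscle (adjusted p = 0.00122), to 4.64 CPM. In kidney it fell by 1.69 (adjusted p = 0.0160), and without male week 2 replicate 1 the value was 0.14 and not called. The kidney call was also lost with a replicate block (-1.09), which within 1 organ groups different rats of equal number. In lung it fell by 2.89 (SE 1.22, adjusted p = 0.0485), a call lost without the replicates numbered 1 (-3.22), 2 (-2.73) or 4 (-2.61), with adjusted p of 0.00605 to 0.106 over its alternatives. The lung call was also lost with a replicate block (-2.89). Brain (-0.12), spleen (-0.96) and thymus (0.19) were not called, and thymus was -0.15 without female week 104 replicate 3. With lane as a covariate brain was called at -0.95, and at -0.92 with the lanes of 2 libraries exchanged whose names the lane table gives crosswise, with adjusted p of 0.0366 to 1.00 over its alternatives.

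Between weeks 6 and 21 miR-122-5p fell in 1 of 10 organs and rose in 0 of 10 by edgeR, with 1 higher at an unadjusted p under 0.05 and 1 higher by DESeq2, both in uterus. The share of all miRNAs that fell was 10.2% in adrenal gland, 9.90% in brain, 15.1% in heart, 3.41% in kidney, 12.0% in lung, 24.4% in skeletal muscle, 6.49% in spleen, 2.11% in testis, 5.52% in thymus and 4.71% in uterus. In spleen, where medians were 18.8 CPM at week 6 and 5.26 CPM at week 21, it fell by 2.58 (SE 0.68, adjusted p = 0.0104). Without male week 6 replicate 4 the spleen value was -1.18 and not called, with adjusted p of 0.00119 to 0.235 over its alternatives. In lung the value was -0.55 and became a called -4.38 without male week 21 replicate 3. In uterus, with medians of 2.39 CPM at week 6 and 8.64 CPM at week 21, the value was 1.51 (adjusted p = 0.0566). The uterus step was called without week 2 replicate 1 (1.52), a library outside the step.

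Between weeks 21 and 104 it fell in 2 of 10 organs and rose in 0 of 10 by edgeR, with 0 higher at an unadjusted p under 0.05 and 0 higher by DESeq2. The share of all miRNAs that fell was 7.95% in adrenal gland, 2.44% in brain, 2.11% in heart, 6.98% in kidney, 6.33% in lung, 8.93% in skeletal muscle, 2.60% in spleen, 24.8% in testis, 21.6% in thymus and 9.58% in uterus. In lung it fell by 4.29 (SE 1.31, adjusted p = 0.0325), and without male week 21 replicate 3 the value was -0.46 and not called. That call was also lost without the replicates numbered 1 (-4.75), 2 (-4.21) or 3 (-0.32). In adrenal gland it fell by 2.17 (SE 0.71, adjusted p = 0.0359), a call lost without the replicates numbered 1 (-2.13) or 3 (-0.96), with adjusted p of 0.00943 to 0.369 over its alternatives. Heart (-0.72) was called without the replicates numbered 1 (-1.20), testis (-0.92) without week 2 replicate 2 (-0.92), and kidney (0.92) rose without male week 2 replicate 1 (0.92). Both week 2 libraries lie outside this step and act on its call only through the shared fit. Scaled by library size alone, testis (-2.19) and uterus (-1.52, against -1.04) were also called lower. The lung and adrenal calls were lost with a replicate block (-4.05 and -1.80) and with lane as a covariate (-3.09 and -1.24).

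The partner strand had a median count under 10 in each organ outside liver and was not tested for age there, and its levels in 3 organs are given as a description chosen after its values were seen. miR-122-3p was 5.58 to 9.96 CPM (median 9.18, n = 4) in uterus at week 2 and 0 to 0.204 CPM (median 0.0901, n = 4) at week 6. In testis it was 3.24 to 5.45 CPM (median 4.59, n = 4) at week 2 and 0 to 1.87 CPM (median 0.448, n = 4) at week 6. In adrenal gland its median was 8.86 CPM at week 2, 1.63 at week 6, 0.697 at week 21 and 0.335 at week 104 (n = 8 each). The uterus and testis samples of week 2 lay above all those of week 6, and the adrenal glands overlapped.

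The red cell list did not fall with miR-122-5p in heart, skeletal muscle or testis. From week 2 to week 6 the red cell list had 4 of 4 higher in adrenal gland, heart and testis, 2 of 4 in kidney and 1 of 4 in skeletal muscle. In uterus edgeR called 0 of 4 in either direction. The share of all 616 miRNAs that rose in this step was 15.1% in adrenal gland, 20.5% in heart, 18.5% in testis, 17.0% in kidney, 19.5% in skeletal muscle and 12.5% in uterus, so 1 of 4 lies near it. Its summed median went from 51655 to 84098 CPM in heart, from 3679 to 17005 CPM in testis, from 76083 to 139229 CPM in skeletal muscle and from 842 to 806 CPM in uterus. Of the hepatocyte list, 3 of 10 rose and 1 fell in heart, 2 rose in skeletal muscle, 1 rose in testis and 2 rose in uterus, counts not far from those shares. In kidney 7 of 10 rose and 2 fell, and the summed median went from 53832 to 86880 CPM. The hepatocyte sum went from a median of 47906 to 32494 CPM in heart, from 49152 to 60375 CPM in skeletal muscle, from 15992 to 15243 CPM in testis and from 19099 to 15634 CPM in uterus. Over the span from week 2 to week 104 the hepatocyte list fell with miR-122-5p in adrenal gland, where 7 of 10 fell and 1 rose (median log2 -1.13). Its sum there, with 0 of 10 absent from all samples, went from a median of 37862 to 14225 CPM. The sum was led by rno-miR-148a-3p, whose mean exceeded 100 CPM in all 11 organs. In the other organs with a called fall the list had 4 higher and 1 lower in heart, 6 and 2 in kidney, 5 and 2 in skeletal muscle, 5 and 2 in testis and 4 and 2 in uterus, and 6 higher in lung. Over that span the red cell list had 3 of 4 lower in lung (median log2 -0.63). It had 4 of 4 higher in heart and kidney, 3 of 4 in adrenal gland and testis, 1 of 4 in skeletal muscle and 0 of 4 in uterus by edgeR. The white cell list had 5 of 5 higher in heart and testis and 4 of 5 in adrenal gland, kidney, lung, skeletal muscle and uterus. The share of all miRNAs that rose was 21.3% in adrenal gland, 28.6% in heart, 17.7% in kidney, 23.5% in lung, 28.1% in skeletal muscle, 18.5% in testis and 17.4% in uterus. The share that fell was 23.7% in adrenal gland, 26.1% in heart, 26.0% in kidney and in lung, 31.7% in skeletal muscle, 36.7% in testis and 27.3% in uterus. The part of blood or liver RNA in the falls of miR-122-5p was not tested.

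The miRNAs most like the members were sought over the 44 means of organ and age, on log2(CPM + 1). The points share libraries across miRNAs and are dominated by the contrast of liver with the rest, so the correlations are a description. For miR-122-5p Pearson's r was 0.981 with miR-122-3p, 0.896 with miR-802-3p, 0.894 with miR-802-5p, 0.749 with rno-miR-193a-3p and 0.735 with rno-miR-101b-3p. For miR-802-5p it was 0.994 with miR-802-3p, 0.926 with miR-122-3p, 0.894 with miR-122-5p, 0.887 with rno-miR-194-3p and 0.885 with rno-miR-192-3p. All of these had their highest mean in liver, but the others fell off less sharply. rno-miR-193a-3p averaged 568 CPM in liver and 58.1 CPM in adrenal gland, and rno-miR-101b-3p 8818 CPM in liver and 2191 CPM in testis. rno-miR-194-3p averaged 41.7 CPM in liver and 11.3 CPM in kidney, and rno-miR-192-3p 63.1 CPM in liver and 14.8 CPM in kidney.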

How the data were processed

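Small RNA was measured in 320 samples of 11 rat organs, and the deposited table holds 1 raw count per miRNA and sample for 616 miRNAs. Per the submitters' processing notes, the authors trimmed reads with fastp 0.23.2 and aligned them with Bowtie 1.3.1 to the genome build rn7. The paper also lists miRBase and databases of other RNA classes among the references of this alignment. Members are all miRNAs named rno-miR-122 or rno-miR-802. Other named miRNAs come from the marker lists, the 5 most correlated with the main arm of each, and the 5 most abundant in liver. Members and lists were chosen with earlier results of these data known. Groups are sex by age within an organ. Male brain week 6 replicate 3 and female spleen week 104 replicate 4 were left out. Both clustered away from their organs in the study's own processing. CPM uses column totals. Fits used edgeR 4.0.16 in R 4.3.3 (quasi-likelihood, TMM, all 616 miRNAs, Benjamini-Hochberg, called at an adjusted p under 0.05), with DESeq2 1.42.0 as an alternative. Other organs were fitted for members with a median count of at least 10. Ratios (0.5 added to counts) used exact permutation tests, or 100000 resamples for sex, in Python 3.11.15 with NumPy 2.4.6, pandas 2.3.3 and SciPy 1.17.1. Sequencing lanes come from the study's sample table. Replicates were checked: 0 columns were identical, and the lowest chi-square per degree of freedom was 13.9 over 48 liver replicate pairs. Alternatives were other scalings, a count filter, lane, a replicate block and samples left out. Within 1 organ the block groups equal replicate numbers over sexes and ages, which are different rats. Across organs it takes equal sex, age and number as 1 rat. Floors cover counting error only.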

Additional observations from a re-analysis of the deposited data

Results flagged for a closer look

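In 141 checks of 1 measure in a group of 4 samples, 13 found a sample far from the other 3, and in 12 of these it was the highest. The same groups entered for several measures, 6 in liver. By its critical value such a check flags about 1 in 20 groups by chance if values are normal and independent, which was not tested for these CPM values. In adrenal gland miR-122-5p was 933 CPM in female week 2 replicate 3 (others 52.7 to 202), 304 CPM in male week 6 replicate 2 (others 20.5 to 40.4) and 421 CPM in male week 21 replicate 3 (others 5.49 to 35.4). In brain it was 143 CPM in female week 21 replicate 2 (others 10.8 to 27.8). In female week 104 replicate 4 of brain it was 55.0 CPM (others 2.81 to 9.36). Among brain libraries, that replicate had the fewest miRNA counts. The paper reports that its share of miRNA reads was far below the brain average. In heart miR-122-5p was 12.7 CPM in female week 104 replicate 1 (others 1.71 to 3.51). In kidney it was 653 CPM in male week 2 replicate 1 (others 8.62 to 12.1) and 9.98 CPM in male week 104 replicate 4 (others 3.42 to 3.59). In lung it was 174 CPM in male week 6 replicate 4 (others 3.16 to 4.41) and 2885 CPM in male week 21 replicate 3 (others 2.73 to 5.43). In spleen it was 228 CPM in male week 6 replicate 4 (others 5.14 to 13.6) and 24.99 CPM in male week 21 replicate 1 (others 4.01 to 5.64). In liver the log2 ratio of miR-122-5p to miR-122-3p was 3.85 in male week 21 replicate 3, below the 4.68 to 4.83 of the others.

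Both arms of miR-802 moved in opposite directions in liver and kidney. In the steps given here every older liver lay above every younger one, and every older kidney lay below every younger one. For miR-802-5p the log2 change from week 2 to week 104 was 1.94 in liver and -2.53 in kidney. For miR-802-3p it was 1.12 in liver and -0.95 in kidney from week 2 to week 6, and 1.87 and -2.89 from week 2 to week 104. The difference between the organs was not tested.

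The 2 samples left out of the comparisons also held the members. The paper removed both because they clustered with uterus samples and not with their own organs. Over all 616 miRNAs, on log2(CPM + 1), the left-out brain was most alike to the mean of brain (Pearson r = 0.929). The left-out spleen was more alike to the mean of lung (0.913) than to that of spleen (0.881). These values run across miRNAs, which are not independent replicates. Male brain at week 6, replicate 3, had 204 CPM of miR-122-5p, 12.3 of miR-122-3p, 16.6 of miR-802-5p and 5.78 of miR-802-3p. Female spleen at week 104, replicate 4, had 287, 19.8, 30.2 and 8.49 CPM.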

How the results depend on the processing

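The rises of both miR-802 arms in liver kept their direction and their call under all alternatives. The log2 value for miR-802-5p ran from 1.19 to 1.58 (week 2 to 6) and from 1.62 to 1.99 (week 2 to 104), and for miR-802-3p from 0.99 to 1.21 and from 1.59 to 1.94. The falls of both arms in kidney from week 2 to 104 did too (-2.92 to -2.32 and -3.10 to -2.70), as did those of miR-122-5p in heart, skeletal muscle, testis and uterus from week 2 to 6 and to 104. Of 1716 values of the liver fits 1644 kept direction and side of the threshold, of 524 in other organs 457, of 48 for ratios 43, of 72 for lists 62, of 40 for organ order 40 (30 of them with another count), of 28 for traces 21 and of 6 for likeness 3. A count was taken as kept within 1.5 times the reported one. For each liver fit, 32 of the alternatives left out 1 library each, so these numbers of kept values depend on which alternatives were counted. The organ order counts ran from 24 to 30 (28) for miR-122-5p in adrenal gland, 26 to 31 (30) for miR-802-5p and 28 to 34 (33) for miR-802-3p in kidney, and 23 to 32 (30) for miR-802-5p in spleen. In all 71 values of 29 results changed sign, 2 of them with a called value. The cause of the changes below was not tested. The lane covariate in other organs, its form with the lanes of 2 libraries exchanged and the removal of each organ's highest miR-122-5p library were chosen after seeing the data. Values are log2 differences, older minus younger and female minus male, with the reported value in brackets.

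With a replicate block, 5 of 124 results changed direction or side of the threshold: miR-122-5p in adrenal gland week 104 - 21 -1.80 (-2.17), kidney 104 - 2 -1.09 (-1.69), lung 104 - 2 -2.89 (-2.89) and lung 104 - 21 -4.05 (-4.29) lost their call, and in liver the sex difference at week 6 was -0.011 (0.0067). Of its 28 counts 5 shifted within the tolerance, to 27 (28) in adrenal gland, 31 (30) and 34 (33) in kidney, 28 (30) in spleen, and 4 (5) hepatocyte miRNAs higher for 21 - 6. In fits of 1 organ the block grouped equal numbers over sexes and ages, which are different rats, so it corrected for no pairing there. Between livers of different groups, mean r was 0.001 for equal replicate numbers (-0.43 to 0.43). Of 32 livers, 10 were on average most alike to those of their own number, out of 4 numbers. These livers come from different rats, so the check cannot tell whether equal numbers of different organs mark 1 rat. The block called 205 liver miRNAs for week 6 - 2 and 264 for 104 - 2, against 217 and 275.

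With lane as a covariate these liver values changed sign: miR-122-5p 6 - 2 0.12 (-0.02), its sex difference at week 6 -0.17 (0.01), miR-802-5p 104 - 21 -0.13 (0.07), and the sex differences of age changes of miR-802-5p 21 - 2 -0.087 (0.24) and miR-122-3p 104 - 21 0.050 (-0.17). So did miR-122-5p in kidney 21 - 6 0.35 (-0.69) and 104 - 21 -0.39 (0.92), and in lung 6 - 2 -0.52 (1.95) and 21 - 6 0.62 (-0.55). Calls were lost for liver miR-122-3p 6 - 2 0.050 (0.47) and miR-802-3p 21 - 6 0.50 (0.48), and for miR-122-5p 104 - 21 in adrenal gland -1.24 (-2.17) and lung -3.09 (-4.29) and 21 - 6 in spleen -2.19 (-2.58). Calls were gained for miR-122-5p in brain 104 - 2 -0.95 (-0.12), or -0.92 with the lanes of female week 6 replicate 2 of brain and skeletal muscle exchanged, and uterus 21 - 6 1.84 (1.51).

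Scaled by library size only, sign changed in liver for miR-122-3p 21 - 6 -0.0056 (0.32) and sex at week 104 -0.019 (0.06), miR-122-5p 104 - 21 0.17 (-0.01) and the sex difference of its change 21 - 2 0.11 (-0.06), and miR-802-3p sex over all ages 0.025 (-0.017), and in skeletal muscle for miR-122-5p 21 - 6 -0.33 (0.24). Calls were lost for liver miR-122-3p 6 - 2 0.35 (0.47) and miR-802-3p 21 - 6 0.13 (0.48). Calls were gained for liver miR-802-3p 104 - 21 0.46 (0.27), kidney miR-802-3p 21 - 6 -0.96 (-0.64), and miR-122-5p in adrenal gland 6 - 2 -1.76 (-1.70), testis 104 - 21 -2.19 (-0.92) and uterus 21 - 6 1.64 (1.51) and 104 - 21 -1.52 (-1.04). In the lists, the hepatocyte count was 1 higher for 21 - 6 (5) and 3 lower for 104 - 2 (1). The red cell count was 0 higher by edgeR for 6 - 2 (2), 1 lower for 21 - 6 (0), 3 higher for 104 - 21 (1) and 2 higher for 104 - 2 (4), and the white cell count 3 higher for 104 - 21 (1).

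With RLE factors liver miR-122-3p 6 - 2 0.40 (0.47) and miR-802-3p 21 - 6 0.41 (0.48) lost their call. With the members left out of the scaling, liver miR-122-5p 6 - 2 was 0.070 (-0.023), its 104 - 2 was called at 0.38 (0.33), and miR-802-3p 21 - 6 was not at 0.45 (0.48). DESeq2 gave no p for miR-122-5p in kidney at any age step, so these 4 results have no DESeq2 value. With DESeq2 no call was lost among the results it could test, and calls were gained for miR-122-5p in adrenal gland 6 - 2 -1.69 (-1.70) and uterus 21 - 6 1.52 (1.51), and in kidney for miR-802-5p 6 - 2 -0.44 (-0.45) and miR-802-3p 21 - 6 -0.63 (-0.64). With a mean count of at least 10, liver miR-122-5p 6 - 2 was 0.063 (-0.023) and 104 - 21 0.0069 (-0.0093), miR-802-3p sex over all ages 0.025 (-0.017), and calls were gained for liver miR-122-5p 104 - 2 0.30 (0.33) and kidney miR-802-3p 21 - 6 -0.66 (-0.64). The hepatocyte count then was 6 higher for 6 - 2 (3), 3 higher for 21 - 6 (5) and 2 lower for 104 - 2 (1).

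The highest CPM outside liver with TMM factors was 2653 (2885) for miR-122-5p and 67.7 (73.6) for miR-122-3p. Above 1 count stood 120 samples (55) for miR-122-3p and 170 (103) for miR-802-3p, and above 10 counts 26 (55), 48 (103) and, for miR-802-5p, 66 (136). Spearman correlation kept 1 of the 5 most alike miRNAs for miR-122-5p and 3 for miR-802-5p, and a pseudocount of 10 kept 3 for miR-122-5p.

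Leaving out samples changed a sign or a call in 43 results, given as lowest to highest. Liver miR-122-5p: 6 - 2 -0.13 to 0.046, 104 - 21 -0.11 to 0.053, 104 - 2 0.17 to 0.39, sex at week 6 -0.14 to 0.15, sex difference of 21 - 2 -0.17 to 0.035. Liver miR-122-3p: 6 - 2 0.37 to 0.53, 104 - 21 -0.55 to -0.34, 104 - 2 0.20 to 0.42, sex at week 104 -0.12 to 0.23, sex difference of 21 - 2 -0.27 to 0.035 and of 104 - 21 -0.38 to 0.0066. Liver miR-802-5p: 104 - 21 -0.0017 to 0.14, sex at week 6 -0.086 to 0.25. Liver miR-802-3p: 21 - 6 0.45 to 0.54, sex over all ages -0.046 to 0.016, sex at week 2 -0.036 to 0.11. Log2 ratios: miR-122-5p to miR-122-3p 6 - 2 -0.67 to -0.40, miR-122-5p to miR-802-5p 21 - 6 -0.12 to 0.21 and sex -0.089 to 0.22. miR-122-5p in adrenal gland: 6 - 2 -2.57 to -0.52, 21 - 6 -1.55 to 0.48, 104 - 21 -2.49 to -0.96. Brain: 104 - 21 -1.64 to 0.31, 104 - 2 -0.95 to 0.25. Heart: 104 - 21 -1.20 to -0.32. Kidney: 6 - 2 -2.15 to -0.089, 104 - 21 0.56 to 1.13, 104 - 2 -2.23 to 0.35. Lung: 6 - 2 0.68 to 2.56, 21 - 6 -4.86 to 1.37, 104 - 21 -4.75 to -0.32, 104 - 2 -3.22 to -2.61. Skeletal muscle: 21 - 6 -0.021 to 0.57. Spleen: 6 - 2 -0.87 to 1.34, 21 - 6 -3.21 to -1.18, 104 - 21 -0.18 to 1.75. Testis: 104 - 21 -1.06 to -0.78. Thymus: 6 - 2 -0.45 to 0.56, 104 - 2 -0.32 to 0.64. Uterus: 21 - 6 1.29 to 1.97. Kidney miR-802-5p: 21 - 6 -0.88 to -0.63. Spleen miR-802-5p: 21 - 6 -0.014 to 0.68, 104 - 2 -3.58 to -0.65.

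Liver libraries were the shallowest by the median (1040989 counts, range 315550 to 1692126), so 3 counts equal up to 9.51 CPM there. Outside liver miR-122-3p and both arms of miR-802 mostly stood near the floor, with medians of 0.339, 1.07 and 0.717 CPM. Age and lane overlap little in liver, with 1 lane holding both week 2 and week 6. Bulk values do not separate cell types, and the genome build among the authors' alignment references differs from the assembly of the printed coordinates.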
